A study of Mus musculus with 6 samples.

Results

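The cell cycle and DNA replication genes described here are 36 genes of the proliferative programme, chosen by name from 18194 genes that at least 1 probe set of the array names alone. They fall into 3 roles, with 12 genes of DNA replication and nucleotide supply, 21 genes of mitosis and 3 cyclins of the G1 phase. Each gene was read from its probe set of the highest mean signal over 6 arrays. Such a probe set was at hand for 35 genes, and no probe set named Ccnb1 alone. After a filter on dim signals 34 genes were tested, and Bub1b, at 17.0 to 72.0, lay under it.

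Thyroid RNA was measured at postnatal day 15 on Affymetrix mouse expression arrays, 3 from mice heterozygous for Slc26a4 and 3 from Slc26a4 knockout mice. Slc26a4 encodes pendrin, an anion exchanger of the apical membrane of thyroid follicular cells, and the comparison asked what differs in the gland when it is lost. The heterozygous mice are the controls and carry 1 mutant copy themselves. All 6 glands were microdissected, and each array is called by its genotype and the sample number in its title. The heterozygous arrays are 1, 3 and 5, and 2, 4 and 6 are the knockouts. The labels do not state strain, sex, litter, which part of the gene is deleted, or how many animals gave each RNA. The p-values therefore measure the spread between these samples, which may be technical in part.

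A dividing cell copies its DNA in S phase and separates the copies in mitosis. The Mcm2 to Mcm7 proteins form the helicase that opens the DNA, loaded by Cdc6 and activated with the GINS complex, while the clamp Pcna holds the polymerases and ribonucleotide reductase and thymidylate synthase supply the nucleotides. Cyclins with their kinases drive the steps, and most mitotic transcripts are made late in the cycle and are scarce in resting cells. In the young postnatal gland follicular cells are still being added, and the adult gland divides little. An array of whole tissue cannot tell fewer cycling cells from less transcript per cell.

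Levels are linear array signals and differences are on the scale log2(signal + 16.7), which understates changes of dim genes. The arrays had been scaled to 1 trimmed mean, and their median signals lay between 78.0 and 103.6. Bacterial control probe sets set a background of 22.9. The targeted gene Slc26a4 read between 2.10 and 15.7 on all 6 arrays, under that background in both genotypes, so it does not check the labels. Thyroglobulin (Tg), the thyroid's own secreted protein, read between 11794.5 and 13804.6 on every array, and the iodide transporter Slc5a5 between 1290.5 and 3400.1. The arrays differed in what else they held. Pth, the parathyroid hormone, read 165 on heterozygous 1 and 2788.5 on knockout 6 but 9702 to 11058 on the other 4. Xist, made in females from the inactive X chromosome, read 5442 on knockout 6 and 34.3 to 110.2 on the other 5. The 3' to 5' signal ratio of Gapdh, a measure of RNA integrity, lay between 1.32 and 1.48, and on heterozygous 1 and knockout 4 it was 1.39 and 1.33. For Actb it lay between 2.70 and 3.21.

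None of the 34 tested cell cycle genes passed the test for a difference between knockout and heterozygous thyroid. In limma 0 were past an adjusted p of 0.05 and 0 had an unadjusted p under 0.05. Over the 27022 probe sets tested, 0% were called higher, 0% were called lower and 0.511% had an unadjusted p under 0.05. The knockout mean was the higher for 27 of the 34 (79.4%), against 49.3% of all probe sets tested, and the median log2 difference was 0.22 against -0.0021 for all. That count was 14 without heterozygous 1, 19 without knockout 4 and 6 without both. In 0 of the 34 did the 3 knockout arrays lie wholly above or wholly below the 3 heterozygous arrays. Over all probe sets tested 1.64% lay wholly above and 2.04% wholly below. The 95% interval of the difference included 0 for all 34, and for 17 it also reached a doubling or more in knockouts. At this number of arrays a change of that size in those 17 genes could not be told from none. The adjusted p was 1 for every member.

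**Figure D1:**
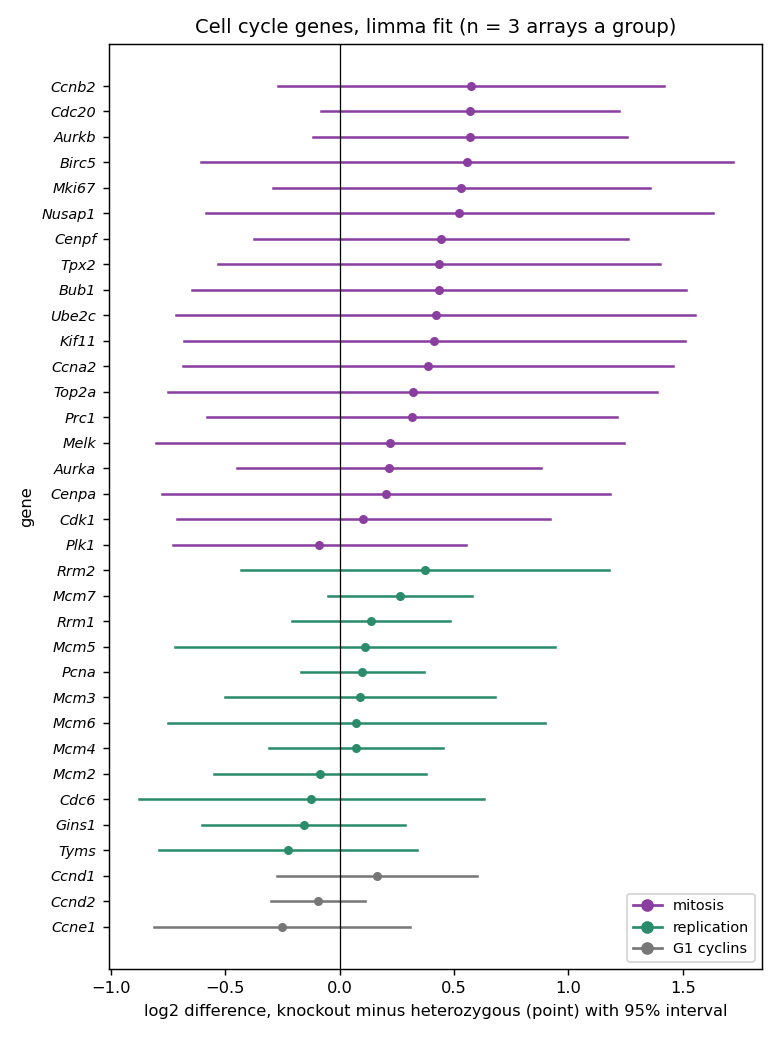
Log2 difference (x axis, knockout minus heterozygous) of each tested cell cycle gene (y axis) in the limma fit, as a point with its 95% interval, 3 arrays a group. Of the 19 mitosis genes 18 have a point above 0, the 12 replication genes lie between -0.23 and 0.37, and every interval includes 0.

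What did vary was the array. Heterozygous 1 had the lowest signal of the 6 arrays for 23 of the 34 genes, where 16.2% of all probe sets tested did so. Knockout 4 had the highest for 24 of the 34, against 11.6% of all. Both held for 18 of the 34, against 2.53% of all. These 2 arrays belong to different genotypes, and the other 4 lay between them for most of the mitotic genes. This pattern was seen in these data and is given as a description. Because the 2 arrays were picked from these values, leaving both out lowers knockout minus heterozygous by construction.

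**Figure D2:**
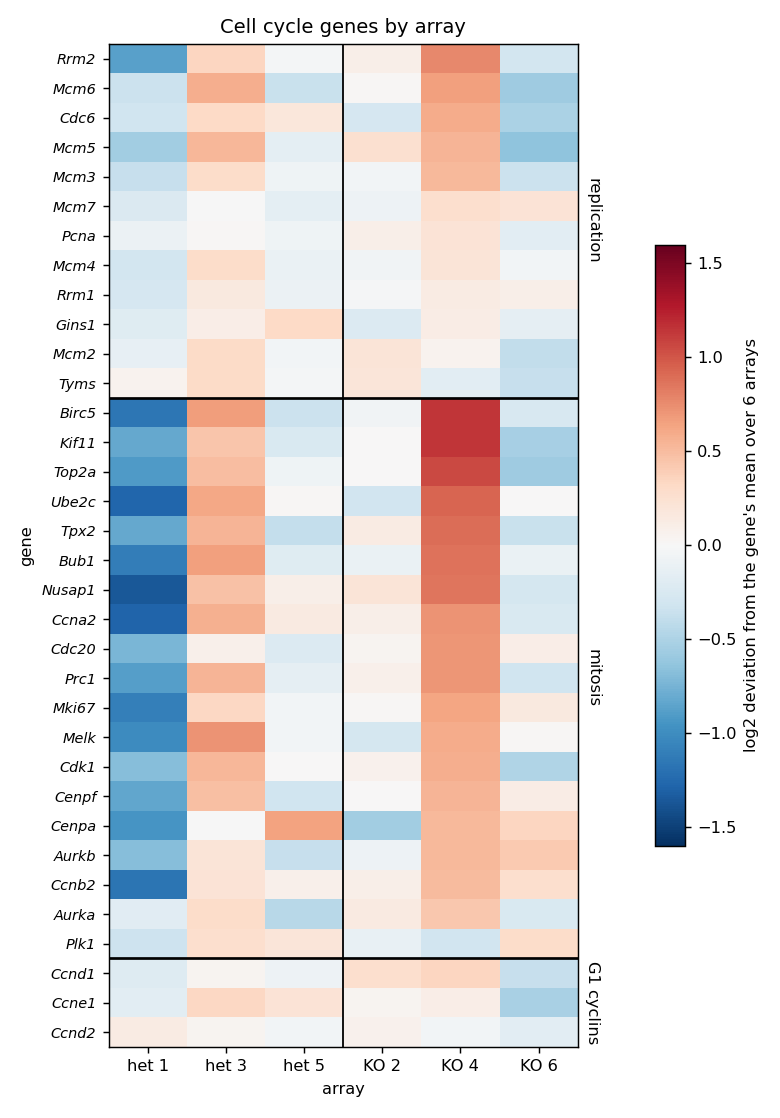
Heat map of the 34 tested genes (y axis, grouped by role) on the 6 arrays (x axis, het for heterozygous and KO for knockout), coloured by the log2 deviation from the gene's mean over the 6 arrays. The column of heterozygous 1 is blue and the columns of heterozygous 3 and knockout 4 are red through most of the mitosis block, and the replication block is paler.

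Since the mitotic genes varied together across arrays, the members' promoters were read for shared words. Windows from 250 bases before to 50 after each start were taken from RefSeq (GRCm38.p6) for 29 of the 36 genes, in 31 windows. Ccna2, Aurkb, Tpx2, Mcm4, Gins1, Ccnd1 and Ccnd2 were not matched. Prc1 and Mcm7 have 2 windows each, and those of Prc1 overlap. 3 motifs were searched on both strands. The E2F site was taken as TTTCCCGC, TTTGGCGC, TTTCGCGC or TTTGCCGC, the cell cycle homology region (CHR) as TTTGAA or TTCGAA, and the CCAAT box as CCAAT. E2F words on opposite strands can overlap, and TTCGAA reads the same on both. As background, E2F factors act on replication genes, and the DREAM complex holds mitotic genes silent in resting cells through the CHR, often beside CCAAT boxes bound by NF-Y.

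A CHR word stood in 15 of 19 windows of the mitosis genes (78.9%), in 2 of 11 of the replication genes (18.2%) and in 19.2% of all 32851 windows. All 15 also held a CCAAT word, and 7.52% of all windows held both a CHR and a CCAAT word. An E2F word stood in 5 of 11 replication windows (45.5%), in 1 of 19 mitosis windows (5.26%) and in 2.26% of all. A CCAAT word was in 84.2% and 81.8% of the 2 lists against 37.4% of all. Among the further pathway genes, the mitosis windows held a CHR word in 69.8%, a CCAAT word in 74.4% and both in 55.8%. The further replication windows held an E2F word in 25.7%, a CHR word in 22.9% and a CCAAT word in 48.6%, lower for E2F and CCAAT than among the members. The single window among the G1 cyclins, that of Ccne1, held none of the 3, and neither did those of Birc5, Melk, Nusap1 and Tyms. A match is a word in the sequence and not a measured site, and no binding was measured here.

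6 windows are shown because they hold the words that separate the lists. Mki67 (chr7:135716330-135716629, minus strand), Top2a (chr11:99024140-99024439, minus) and Ccnb2 (chr9:70421505-70421804, minus) are mitotic genes with CHR and CCAAT words. Cdk1 (chr10:69352863-69353162, minus) is the mitotic gene that also has an E2F word. Mcm5 (chr8:75109259-75109558, plus) and Mcm6 (chr1:128359656-128359955, minus) are replication genes with E2F words in overlapping pairs. Each runs 5' to 3' on the gene's strand, and capitals mark the words of all 3 motifs.
Mki67: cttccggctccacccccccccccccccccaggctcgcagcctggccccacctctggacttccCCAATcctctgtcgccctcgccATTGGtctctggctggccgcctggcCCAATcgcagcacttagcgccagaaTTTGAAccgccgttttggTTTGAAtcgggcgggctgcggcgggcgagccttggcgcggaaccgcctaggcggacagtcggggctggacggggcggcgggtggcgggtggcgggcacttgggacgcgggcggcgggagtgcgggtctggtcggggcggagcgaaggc
Top2a: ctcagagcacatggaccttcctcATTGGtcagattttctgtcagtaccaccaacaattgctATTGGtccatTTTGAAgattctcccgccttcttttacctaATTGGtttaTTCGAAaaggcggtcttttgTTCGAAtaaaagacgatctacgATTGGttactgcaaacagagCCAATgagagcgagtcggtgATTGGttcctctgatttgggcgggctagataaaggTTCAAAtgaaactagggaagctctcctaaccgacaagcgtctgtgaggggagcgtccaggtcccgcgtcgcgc
Ccnb2: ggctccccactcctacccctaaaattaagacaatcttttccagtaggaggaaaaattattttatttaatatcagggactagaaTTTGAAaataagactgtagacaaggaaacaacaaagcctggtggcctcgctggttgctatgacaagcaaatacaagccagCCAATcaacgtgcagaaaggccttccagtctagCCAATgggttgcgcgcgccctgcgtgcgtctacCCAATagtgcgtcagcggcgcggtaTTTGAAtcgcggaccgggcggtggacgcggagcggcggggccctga
Cdk1: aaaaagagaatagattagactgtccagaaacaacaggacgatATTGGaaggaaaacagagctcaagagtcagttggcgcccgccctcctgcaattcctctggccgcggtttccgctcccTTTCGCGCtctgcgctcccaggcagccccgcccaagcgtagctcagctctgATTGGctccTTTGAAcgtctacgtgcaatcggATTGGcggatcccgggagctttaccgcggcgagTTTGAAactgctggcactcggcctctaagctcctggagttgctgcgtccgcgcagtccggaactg
Mcm5: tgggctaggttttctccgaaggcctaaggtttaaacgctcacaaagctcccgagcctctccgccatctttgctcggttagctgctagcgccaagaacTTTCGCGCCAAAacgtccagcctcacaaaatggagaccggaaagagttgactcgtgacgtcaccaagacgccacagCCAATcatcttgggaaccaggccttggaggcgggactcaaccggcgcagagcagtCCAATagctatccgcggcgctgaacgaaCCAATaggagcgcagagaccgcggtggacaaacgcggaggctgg
Mcm6: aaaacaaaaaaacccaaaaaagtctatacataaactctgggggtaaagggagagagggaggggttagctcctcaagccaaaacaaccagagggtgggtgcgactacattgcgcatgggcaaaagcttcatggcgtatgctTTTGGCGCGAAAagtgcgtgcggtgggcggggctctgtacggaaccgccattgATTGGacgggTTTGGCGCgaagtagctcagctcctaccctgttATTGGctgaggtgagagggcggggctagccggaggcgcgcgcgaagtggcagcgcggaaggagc
In these sequences Top2a holds 4 CHR and 6 CCAAT words, Mki67 holds 2 and 3, and Ccnb2 holds 2 and 3. Mcm6 holds 3 E2F words, Mcm5 holds 2, and neither holds a CHR word. Whether the words go with the spread over arrays was not tested. By list, the median gene ran 3.86 times from its lowest to its highest array for mitosis and 1.76 times for replication. The mitosis genes were also dimmer, with a summed signal of 1465 to 5603 over 20 genes against 6855 to 10800 over 12. Whether brightness goes with the spread was not tested. Some single genes are given as examples. Birc5 and Nusap1, with none of the 3 words, ran 5.48 and 5.51 times from the lowest to the highest array. Mitosis genes with CHR and CCAAT words, where above background on every array, ran from 1.81 times for Plk1 to 5.52 for Kif11. Among them Ube2c ran 5.14 times, and Mki67 and Top2a ran 3.69 and 4.24 times. Of the replication genes with neither an E2F nor a CHR word, Rrm2 ran 3.17 times, Tyms 1.87, Rrm1 1.355 and Pcna 1.32. Those with an E2F word were Mcm7 at 1.42 times, Mcm3 at 1.89, Mcm5 at 2.36, Mcm6 at 2.44 and Cdc6 at 2.46.

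The mitosis genes carried most of this spread. Of the 19 tested, 18 were lowest on heterozygous 1 and 16 were highest on knockout 4, and 15 showed both. The median of their log2 deviations, each from the gene's own mean over the 6 arrays, was -0.91 on heterozygous 1, 0.48 on heterozygous 3 and -0.064 on heterozygous 5. On knockouts 2, 4 and 6 it was 0.0075, 0.70 and -0.11. The range within either genotype therefore exceeded the median difference of 0.42 between them. Over all 19, Bub1 and Melk included, the median gene had a highest signal 3.86 times its lowest, against 1.5 over all probe sets tested. Among the 17 genes above background on every array it ran from 1.81 for Plk1 to 5.52 for Kif11. Bub1 and Melk lay under background on heterozygous 1 and have no measured fold.

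Mki67 encodes the Ki-67 protein of the surface of mitotic chromosomes, the usual marker of cycling cells. It read 93.2, 277 and 211 on heterozygous 1, 3 and 5 and 220.1, 344 and 243 on knockouts 2, 4 and 6. Heterozygous 1 lay well below every other array, while heterozygous 3 fell among the knockouts and heterozygous 5 just below them. The means were 193 ± 92.9 and 269 ± 65.7 (SD, n = 3), and the log2 difference was 0.53 ± 0.36 (SE; 95% interval -0.29 to 1.36).

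Top2a, the topoisomerase that untangles replicated chromosomes, read 140.2, 399 and 265 on heterozygous 1, 3 and 5 and 278, 595 and 182 on knockouts 2, 4 and 6. Knockout 4 stood above all, heterozygous 3 came next, and knockout 6 lay below 2 of the heterozygous arrays. The log2 difference was 0.32 ± 0.46 (SE), with means of 268 ± 129 and 352 ± 216 (SD, n = 3).

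Cdc20, which activates the ubiquitin ligase that starts anaphase, had the smallest unadjusted p of the mitosis list. Its signals were 58.0, 114 and 89.7 on heterozygous 1, 3 and 5 and 110.7, 184 and 116 on knockouts 2, 4 and 6. Heterozygous 3 and the lowest knockout overlapped. The log2 difference was 0.57 ± 0.28 (SE), 95% interval -0.081 to 1.22 (limma, unadjusted p = 0.0782). A second tested probe set of Cdc20 read 91.8 ± 27.1 and 93.4 ± 20.7, a log2 difference of 0.037. Without heterozygous 1 the difference of the first was 0.35, and without knockout 4 it was 0.36.

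Aurkb, the kinase of the chromosomal passenger complex, read 35.5, 79.7 and 47.8 on the heterozygous arrays and 62.5, 103 and 95.2 on the knockouts. Ccnb2, a B-type cyclin that partners Cdk1, read 37.7, 125 and 112.6 and then 113.5, 156 and 129.6. Both were lowest on heterozygous 1 and highest on knockout 4, and heterozygous 3 overlapped the knockouts. The log2 difference was 0.57 ± 0.30 (SE) for Aurkb and 0.57 ± 0.37 (SE) for Ccnb2. Without heterozygous 1 they were 0.37 and 0.13, and without heterozygous 1 and knockout 4 they were 0.26 and 0.026.

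Cdk1, the kinase that drives entry into mitosis, and Plk1, a kinase of spindle and chromosome separation, had the largest p of the list. Cdk1 read 212, 512 and 352 on heterozygous 1, 3 and 5 and 368, 531 and 245 on knockouts 2, 4 and 6. It was lowest on heterozygous 1 and highest on knockout 4, while the group means of 358 ± 150.3 and 381 ± 143 (SD, n = 3) lay close. Plk1 read 32.7, 57.7 and 53.9 and then 40.1, 33.4 and 59.1. It was the mitosis gene that went against the others, with 33.4 on knockout 4, near its lowest, and it was dim throughout.

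The remaining mitosis genes repeated the pattern at various strengths. Birc5, the survivin subunit of the passenger complex, ran from 121 on heterozygous 1 to 665 on knockout 4, and Nusap1, a spindle microtubule binder, from 70.3 to 387. Ube2c, the conjugating enzyme that works with Cdc20's ligase, ran from 107 to 551, and Ccna2, an A-type cyclin of S phase and mitosis, from 90.8 to 415.5. Kif11, the motor that pushes spindle poles apart, ran from 29.9 to 165, and Tpx2, which activates the kinase Aurka, from 65.5 to 253. Prc1, which bundles the central spindle, ran from 102 to 339, and the kinetochore protein Cenpf from 24.6 to 90.1. The checkpoint kinase Bub1 ran from 19.9, under background, to 126. In each of these 9 genes the lowest array was heterozygous 1 and the highest was knockout 4.

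3 mitosis genes besides Plk1 broke from that order. Aurka, the spindle pole kinase, ran from 36.5 on heterozygous 5 to 80.4 on knockout 4. The kinase Melk ran from 22.0 on heterozygous 1 to 112 on heterozygous 3. Cenpa, the histone variant of centromeres, ran from 139 on heterozygous 1 to 453 on heterozygous 5. The untested Bub1b, a checkpoint protein, had the common order, from 17.0 on heterozygous 1 to 72.0 on knockout 4.

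The median of the mitosis list turned with the arrays used. It was 0.42 with all 6 arrays, -0.0092 without heterozygous 1 and 0.099 without knockout 4. Without heterozygous 3 it was 0.77, without heterozygous 5 it was 0.44, without knockout 2 it was 0.53 and without knockout 6 it was 0.59. With both heterozygous 1 and knockout 4 left out it was -0.32, and 4 of the 19 genes had the higher knockout mean. With all arrays that number was 18, without heterozygous 1 it was 9 and without knockout 4 it was 14. Array weights raised the median to 0.82, and a pseudocount 4 times as large lowered it to 0.28.

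**Figure D3:**
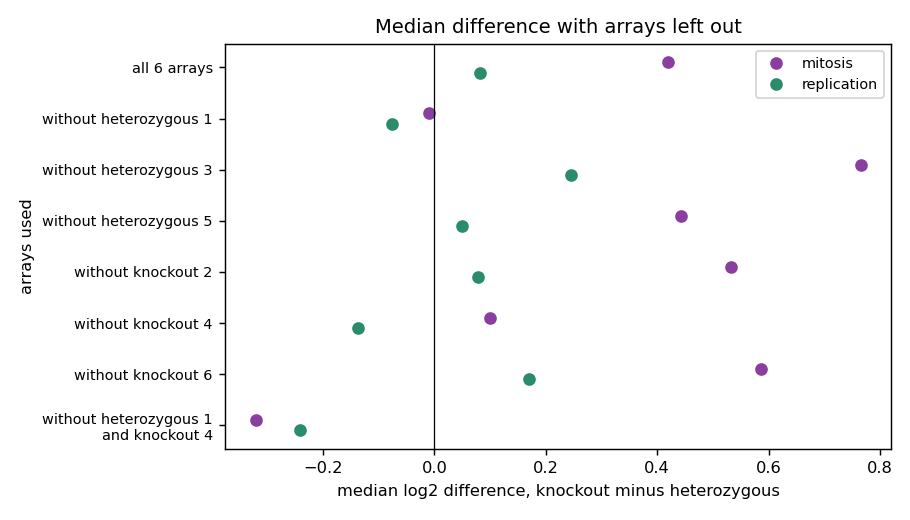
Median log2 difference (x axis, knockout minus heterozygous) of the mitosis and the replication list with all 6 arrays and with arrays left out (y axis). The mitosis median moves from 0.42 to -0.0092 without heterozygous 1 and to -0.32 without heterozygous 1 and knockout 4.

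The replication genes varied less and had a smaller shift. Of the 12, 8 had the higher knockout mean, and the median log2 difference was 0.081 (range -0.23 to 0.37). Their median deviation was -0.28, 0.30 and -0.069 on heterozygous 1, 3 and 5 and 0.0016, 0.24 and -0.32 on knockouts 2, 4 and 6. Heterozygous 1 was lowest for 5 genes and knockout 4 highest for 7, with both in 3. The median gene had a highest signal 1.76 times its lowest. Without heterozygous 1 the median difference was -0.076, without knockout 4 it was -0.14, without both it was -0.24, and without heterozygous 3 it was 0.24. It was 0.17 without knockout 6 and 0.049 without heterozygous 5. The knockout mean was the higher for 4 of the 12 without heterozygous 1, for 4 without knockout 4 and for 2 without both.

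Mcm7, a subunit of the helicase, had the smallest unadjusted p of the replication list. It read 694, 815 and 732 on heterozygous 1, 3 and 5 and 771, 986 and 952 on knockouts 2, 4 and 6. Knockouts 4 and 6 lay above all heterozygous arrays and knockout 2 lay below heterozygous 3. The log2 difference was 0.26 ± 0.14 (SE), with means of 747 ± 62.1 and 903 ± 115 (SD, n = 3; limma, unadjusted p = 0.0911). With 1 array left out it lay between 0.20 and 0.37, and without heterozygous 1 and knockout 4 it was 0.15. Its 3 further probe sets gave 0.27, 0.14 and 0.043.

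Rrm2 and Rrm1 encode the small and the large subunit of ribonucleotide reductase, and Rrm2 is the one made mainly in S phase. Rrm2 read 590.1, 1389 and 1070.0 on heterozygous 1, 3 and 5 and 1168, 1871 and 885 on knockouts 2, 4 and 6. It varied across arrays like the mitotic genes, and its log2 difference was 0.37 ± 0.35 (SE). Rrm1 read 418, 567 and 475 and then 500.5, 560.0 and 541. It varied little between arrays, with a log2 difference of 0.14 ± 0.15 (SE), which was 0.037 without heterozygous 1.

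Tyms, thymidylate synthase, was read by a dim probe set because a brighter one also names the copy Tyms-ps. It gave 56.7, 70.9 and 52.5 on heterozygous 1, 3 and 5 and 64.4, 46.0 and 38.0 on knockouts 2, 4 and 6. It did not follow the other replication genes and was among its lower values on knockout 4. The log2 difference was -0.23 ± 0.25 (SE).

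Mcm5 and Mcm6, helicase subunits, had the largest p of the list. Mcm5 read 276, 605 and 369.8 on heterozygous 1, 3 and 5 and 496, 611 and 259 on knockouts 2, 4 and 6. Mcm6 read 284, 555.5 and 282 and then 371, 586 and 239.7. In both genes heterozygous 3 and knockout 4 were the high arrays and knockout 6 was the lowest. The log2 differences were 0.11 ± 0.36 (SE) and 0.073 ± 0.36 (SE).

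Of the other replication genes, Mcm4 (1167 to 1770 over the arrays), Mcm3 (357 to 677), the clamp Pcna (2239.6 to 2953) and Mcm2 (308 to 511) gave log2 differences of 0.072, 0.089, 0.099 and -0.087. Cdc6, the helicase loader, ran from 64.5 on knockout 6 to 158 on knockout 4 with a difference of -0.12. Gins1, of the GINS complex, ran from 199.0 to 296 with -0.16. The arrays did not share 1 order in these 6 genes: knockout 6 was the lowest for Mcm2, Cdc6 and Pcna, heterozygous 1 for Mcm3 and Mcm4, and knockout 2 for Gins1.

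Mitotic and replication genes differed most on 2 arrays. The mitosis median deviation minus the replication one was -0.63, 0.18 and 0.0042 on heterozygous 1, 3 and 5 and 0.0059, 0.46 and 0.21 on knockouts 2, 4 and 6. On heterozygous 1 and knockout 4 the mitotic genes thus stood farther out than the replication genes, in opposite directions. On heterozygous 5 and knockout 2 the lists lay level. Between genotypes the mitosis median exceeded the replication median by 0.34, a gap of 0.067 without heterozygous 1, 0.24 without knockout 4 and -0.079 without both. Without heterozygous 3 it was 0.52.

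**Figure D4:**
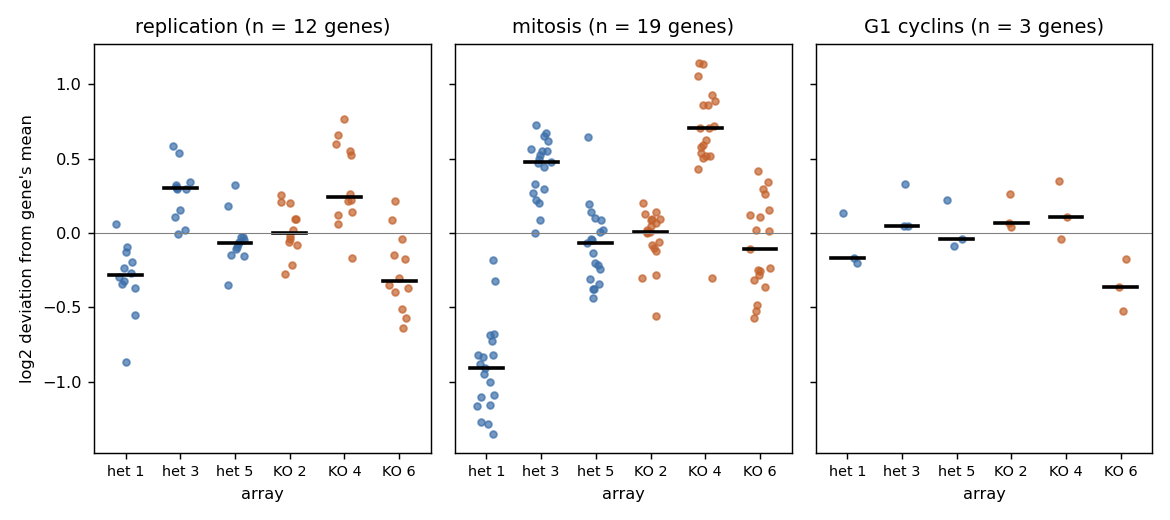
Log2 deviation of each gene from its mean over the 6 arrays (y axis) on each array (x axis), for the replication, mitosis and G1 cyclin lists. Points are genes, blue for heterozygous and orange for knockout, and the black bar is the median, which for mitosis runs from -0.91 on heterozygous 1 to 0.70 on knockout 4.

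The G1 cyclins, which respond to growth signals and start the cycle, did not share the order of the mitotic genes. Ccnd2 read 5482, 5163 and 4840.1 on heterozygous 1, 3 and 5 and 5234, 4853 and 4425 on knockouts 2, 4 and 6. It was highest on heterozygous 1, where the mitotic genes were lowest, with a log2 difference of -0.095 ± 0.090 (SE). Its further 6 probe sets gave -0.15 to -0.063, and in 1 of them, at 1337 ± 77.1 and 1217 ± 55.1, all knockouts lay below all heterozygotes. Of all probe sets tested, 2.04% lay so. Ccnd1 read 1281, 1526 and 1390.3 and then 1778, 1884 and 1143. Knockouts 2 and 4 were its high arrays and knockout 6 its lowest, and the difference was 0.16 ± 0.19 (SE). Ccne1, which acts at the start of S phase, read 111, 164 and 150.5 and then 131, 138 and 83.3, with -0.25 ± 0.24 (SE), or -0.053 without knockout 6. The groups overlapped for all 3.

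Further probe sets of the members, 27 that passed the filter, read the same genes on the same 6 arrays and are no independent check. For mitosis, 5 of 5 had the higher knockout mean with a median of 0.43, and 5 were lowest on heterozygous 1. For replication, 11 of 13 had the higher knockout mean with a median of 0.14. For the G1 cyclins, 2 of 9 had the higher knockout mean. Of all probe sets tested, 49.3% had the higher knockout mean and 16.2% were lowest on heterozygous 1. The lower ones in replication were a dim probe set of Gins1, at 99.6 ± 21.0 and 76.5 ± 20.0, and 1 of 5 of Mcm3. That of Mcm3 read 241, 404 and 295 on heterozygous 1, 3 and 5 and 167, 209.9 and 195 on knockouts 2, 4 and 6, all knockouts under all heterozygotes. Of all probe sets tested, 2.04% lay so. The Mcm3 probe set had an unadjusted p of 0.016 (limma, adjusted p = 1), where 0.511% of all had one under 0.05. The brightest Mcm3 probe set read 357, 576 and 445 and then 453, 677 and 362, so the Mcm3 probe sets disagree.

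Other genes of the same pathways, listed by role and not by how they moved, are given next. Of 40 further mitosis genes tested, 35 had the higher knockout mean with a median of 0.15, and 0 were called. Of these, 27 were lowest on heterozygous 1 and 23 highest on knockout 4. The 4 of smallest p, given as heterozygous and knockout mean ± SD with n = 3, were Racgap1 of the cytokinetic midzone (56.3 ± 12.7 and 97.0 ± 32.0), the spindle pole protein Aspm (103 ± 55.8 and 163 ± 52.3), the kinesin Kif20a (54.2 ± 30.3 and 86.0 ± 19.7) and the kinase subunit Cks1b (3202 ± 198 and 3541 ± 221). Of 31 further replication genes, 18 were higher by mean and 13 lower, with a median of 0.028 and 0 called. The groups did not overlap for 3 of them, with Rpa2 above and Gmnn and Lig1 below in knockouts, where 1.64% and 2.04% of all probe sets tested lay so. Those of smallest p included geminin (Gmnn), which blocks helicase reloading, at 2487 ± 71.6 and 2217 ± 117. Gins2 (406 ± 102 and 326 ± 7.04), the ligase Lig1 (317 ± 53.3 and 269.5 ± 10.2) and the polymerase subunit Pold1 (729 ± 84.6 and 812 ± 96.4) were the next.

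Regulators of the cycle, among them E2f factors, the Rb family and kinase inhibitors, were listed as well. Of 34 tested, 13 had the higher knockout mean (38.2%, against 49.3% of all probe sets tested) and 21 the lower. These genes had a median log2 difference of -0.043, against -0.0021 for all, and 0 were called. Their median deviation stayed between -0.039 and 0.087 on the 6 arrays, with 6 genes lowest on heterozygous 1 and 5 highest on knockout 4. The 4 of smallest p were the checkpoint kinase Chek1 (86.7 ± 25.1 and 109 ± 12.02), the G1 kinase Cdk6 (1268 ± 129.7 and 1108 ± 239), E2f2 (153 ± 29.2 and 177 ± 17.8) and the inhibitor Cdkn2b (277 ± 6.55 and 247 ± 37.8). Cdkn2b was the 1 of the 34 whose knockouts all lay below the heterozygotes, where 2.04% of all probe sets tested lay so. The inhibitor Cdkn1b, which holds cells in rest, read 3801 ± 119 and 3645 ± 257.

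Markers of other cell types moved with some of these arrays. The thymus lies near the thyroid and holds dividing immature T cells. Of 18 thymocyte and T cell markers 15 were measured, and all 15 were above their own mean on knockout 4. Their median deviation was 1.33 there, -0.62 on heterozygous 1 and between -0.48 and -0.28 on the other 4. The summed signal of the 15 was 1808 to 2191 in heterozygous glands and 2019, 7745 and 1589 in knockouts 2, 4 and 6. The recombinase gene Rag1 read 395 on knockout 4 and 1.69 to 16.1 elsewhere, Dntt 1779 against 6.09 to 24.5 and Ptcra 365 against 5.74 to 22.9. The T cell surface genes Cd8a and Cd3e read 102 and 204 there, against 30.7 to 46.6 and 20.4 to 43.1. On knockout 4, 0 of the 15 lay under background, and on the other arrays 5 to 10 did. On heterozygous 3, the second highest array of the mitosis list, Rag1, Dntt and Ptcra read 3.94, 24.5 and 22.9. Other lists also stood high on knockout 4, by less. All 6 endothelial, all 6 fibroblast, all 6 brown fat and 8 of 9 macrophage genes lay above their own mean there. Their median deviations were 0.20, 0.125, 0.21 and 0.14. Thyrocyte, muscle, cartilage and airway markers had medians below 0 there. The part of thymocytes or of these other cells in the cell cycle signal of knockout 4 was not tested.

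On heterozygous 1, the low array, parathyroid markers were also low. The summed signal of the 3 measured was 990.1 there, 16366 and 15998 on the other heterozygous arrays and 16851, 16844 and 3406 on knockouts 2, 4 and 6. Knockout 6 was therefore low in them too, and its mitosis median was -0.11. Other lists also had medians below 0 on heterozygous 1, by less. They were -0.36 for cartilage, -0.31 for airway, -0.20 for B cell, -0.13 for endothelial and -0.12 for macrophage markers. Brown fat and fibroblast markers had -0.080 and -0.029, and thyrocyte and muscle markers 0.15 and 0.72. The endothelial medians on heterozygous 3 and 5 were 0.085 and -0.00025, and on knockouts 2, 4 and 6 -0.014, 0.20 and -0.091. Of 10 red cell genes 8 were measured, with 2 above their own mean on heterozygous 1 and 6 on knockout 4. On knockout 6 it was 7. Their median deviation was -0.36, -0.063 and 0.15 on heterozygous 1, 3 and 5 and -0.21, 0.33 and 0.20 on knockouts 2, 4 and 6. It was lowest and highest on the same arrays as the mitosis median, with the others in another order. On each array 4 or 5 of the 8 lay under background. Alas2, the heme synthesis enzyme, ran from 118 on heterozygous 1 to 482 on knockout 4. Slc4a1 ran from 33.7 on heterozygous 1 to 154 on heterozygous 5. The transferrin receptor Tfrc ran from 5338 on heterozygous 3 to 8462 on knockout 4, and read 7484 on heterozygous 1. Thyrocyte markers, 9 of 10 measured, summed to 37262 to 44952 in heterozygous and 36946 to 43118 in knockout glands, and were highest on heterozygous 1. Muscle markers summed to 31455 on heterozygous 1 and 32744 on knockout 2, and to 6142 on knockout 6. The part of these tissues was not tested.

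**Figure D5:**
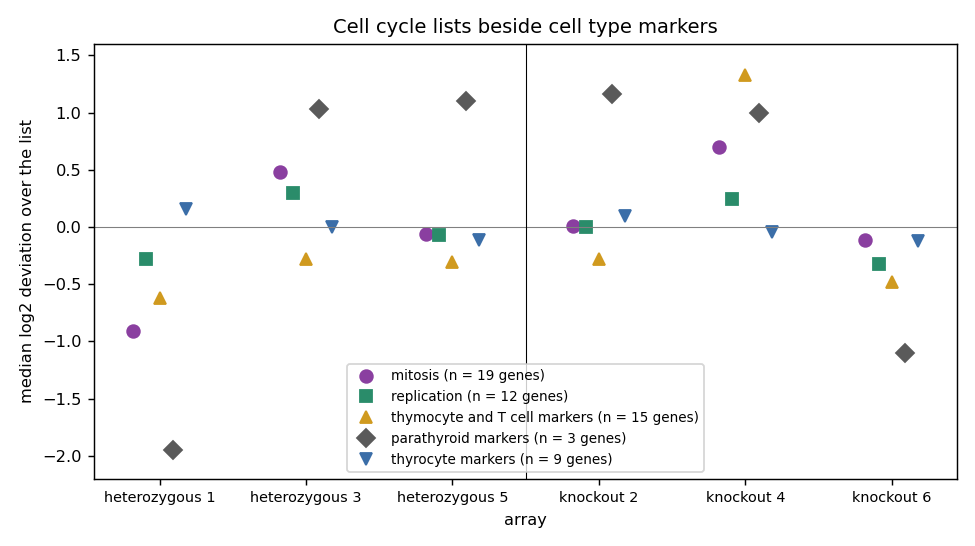
Median log2 deviation (y axis) of the mitosis and replication lists and of all measured genes of 3 cell type marker lists on each array (x axis). Thymocyte and T cell markers (15 genes) stand at 1.33 on knockout 4 and below 0 elsewhere, and parathyroid markers are low on heterozygous 1 and knockout 6.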

How the data were processed

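The authors deposited 1 linear intensity for each probe set and array, made with GCOS per the submitters' processing notes (no version or settings are given). The mean after trimming 2% at each end was 500.002 on each array, so the authors' scaling was kept. A change shared by most transcripts would be lost in it. Detection calls were not used here.

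Gene names came from GEO's platform annotation (34958 of 45101 with 1 symbol, 932 with several, 9211 with none), and only those with 1 symbol are named. Signals became log2(signal + 16.7), 16.7 being the 25th percentile of all values. The 64 control probe sets were left out, and the 27022 with a mean above the 40th percentile (a signal of 43.5) were tested. The genotype contrast was fitted in limma 3.58.1 under R 4.3.3 (lmFit, eBayes with trend), with Benjamini-Hochberg adjustment over all probe sets tested. The fit was tested on simulated data. Each gene was read from its brightest probe set, and lists are given as counts and medians. The deviations are from a gene's mean over 6 arrays.

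The members and lists were chosen with earlier results of these data known. Values are given on every array for Mki67, Top2a, Mcm7, the G1 cyclins and, in the replication and mitosis lists, the 4 members of smallest and 2 of largest p. The 4 genes of smallest p are named from each further pathway list. Defining cell type markers were named beside a result. Other genes, and the 6 promoters, were chosen after their values were seen. Alternatives were 2 normalizations, 2 pseudocounts, 2 filters, 3 variance models, 2 choices of probe set and arrays left out.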

Additional observations from a re-analysis of the deposited data

How the results depend on the processing

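Under all alternatives run, including each array left out, 0 probe sets and 0 of the cell cycle genes passed limma's threshold. The mitosis median lay between 0.28 and 0.82 under the normalizations, pseudocounts, filters, variance models and probe set choices, and the replication median between 0.070 and 0.25. With 1 array left out the medians ranged from -0.0092 to 0.77 for mitosis, from -0.14 to 0.24 for replication and from 0.067 to 0.52 for mitosis minus replication. Without heterozygous 1 and knockout 4 together they were -0.32, -0.24 and -0.079. The spread between arrays was 0.585, 0.29 and 0.34 (pooled SD). Heterozygous 1 and knockout 4 were picked from these values, so leaving both out lowers the medians by construction. The size of that fall therefore cannot show how stable the medians are. Over these 7 runs the log2 differences of the 24 genes whose sign turned in at least 1 had the following ranges: Mcm2 -0.22 to 0.090, Mcm3 -0.31 to 0.29, Mcm4 -0.15 to 0.24, Mcm5 -0.38 to 0.46, Mcm6 -0.39 to 0.38, Cdc6 -0.65 to 0.10, Pcna -0.012 to 0.21, Rrm2 -0.26 to 0.64, Mki67 -0.059 to 0.83, Top2a -0.50 to 0.69, Ccna2 -0.43 to 0.77, Cdk1 -0.48 to 0.39, Plk1 -0.27 to 0.041, Birc5 -0.32 to 1.03, Bub1 -0.33 to 0.87, Ube2c -0.47 to 0.83, Kif11 -0.36 to 0.78, Tpx2 -0.20 to 0.82, Nusap1 -0.32 to 0.89, Prc1 -0.32 to 0.67, Cenpa -0.43 to 0.58, Cenpf -0.019 to 0.79, Melk -0.47 to 0.63 and Ccnd1 -0.031 to 0.39. The other 10 kept their sign, with Mcm7 0.15 to 0.37, Gins1 -0.39 to -0.036, Tyms -0.38 to -0.099, Rrm1 0.0029 to 0.25, Ccnb2 0.026 to 0.83, Aurka 0.019 to 0.42, Aurkb 0.26 to 0.81, Cdc20 0.14 to 0.76, Ccnd2 -0.15 to -0.032 and Ccne1 -0.51 to -0.053. The mean of all probe sets gave 0.083 for Mcm2 and -0.098 for Mcm3, and probe sets without a suffix gave 0.25 for Mcm2. Array weights gave 0.0089 for Gins1 and 0.29 for Cdc6. Beyond the arrays themselves, the cause was not tested. No paired analysis was possible because the groups share no sample number. The number of arrays limits precision, and 3 of the measured mitosis genes lay under background on heterozygous 1.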
